A study of Mus musculus with 33 samples.

Results

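Lungs of mice taken off doxycycline were compared with lungs of mice kept on it, in a mouse line in which doxycycline turns on the only source of surfactant protein B (SP-B). The comparison holds 8 right-lung RNA samples, 4 off doxycycline and 4 on it, of 33 samples in the series, and covers all 773 endogenous genes of an nCounter panel, which hybridizes a coloured barcode to each RNA molecule and counts the barcodes with no amplification step. Samples were assigned to the groups by their labels. The genotype of both groups was CCSP-rtTAtg/(teto)7Sftpb/Sftpb-/-, on an FVB/N background, so all 8 lungs lack the Sftpb gene itself and depend on a transgene that is active only with doxycycline and only in cells where the CCSP promoter, that of the airway club cell secretory protein, is active. The off-doxycycline group received no vector and its doxycycline feed was removed on day 94, 3 days before harvest on day 97. The on-doxycycline group received no vector and kept its feed until the same day. Each group holds 2 female lungs (replicates 1 and 2) and 2 male lungs (replicates 3 and 4). No age is given, and nothing in the labels ties each sample to a separate mouse, so the p-values reflect sample-to-sample spread that could be technical. At the same harvest 16 further lungs had been taken from 4 groups given an AAV vector, AAV-hSPB or AAV-hSPBTLR9i, once on day 0 or again on day 90, with the feed removed on day 7.

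SP-B is a small hydrophobic protein that spreads surfactant lipid over the air-liquid surface of the alveoli, and mice without it cannot keep their alveoli open. In this mouse line, doxycycline keeps the animal alive, and its removal lets SP-B run down over days. The panel reads immune and interferon genes, and Sftpb and the transgene were not among the genes analysed here. The lungs therefore show what the immune transcripts did after the feed was removed, and loss of the drug and loss of SP-B cannot be told apart.

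The recovered counts summed to 671453 to 749782 per lung off doxycycline and 676906 to 832041 on it, and values are given below as the authors' log2 normalized counts. A background for each lung, set from 8 dim control probes as their mean plus 2 SD, lay between 3.88 and 4.47 log2 units off doxycycline and between 4.10 and 4.59 on it, and 81 to 109 genes per lung off doxycycline and 90 to 110 on it were at or below that level. A pair of lung epithelial genes was high in all 8 lungs. Cxcl15, a chemokine made by lung epithelium, stood at 14.45 to 15.49 log2 units off doxycycline and 14.09 to 14.72 on it, and Ager, the receptor that marks flat alveolar type I cells, at 13.82 to 14.64 off and 14.32 to 14.75 on. On-doxycycline replicate 1 stood apart through liver transcripts: Serpina1a, the liver antitrypsin, was at 15.41 there, against 8.70 to 9.41 in the 4 off-doxycycline lungs and 9.03 to 9.59 in the other on-doxycycline lungs. In that lung 8 genes (Crp, Agt, Serpina1a, H2-Q10, Plg, Cyp2e1, Ephx2 and Hamp) were over 2 log2 units above all 23 other day 97 lungs. Counts and the female results of the main genes are given below without it as well.

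With all 4 lungs of each group together, 0 of 773 genes passed limma's test off against on doxycycline after Benjamini-Hochberg adjustment (0% called). At an unadjusted p under 0.05 there were 96 genes (12.4%), 61 of them higher and 35 lower, and the voom fit of recovered counts called 0 genes, with 104 under the unadjusted 0.05. Without on-doxycycline replicate 1, 0 genes passed, with 81 under the unadjusted 0.05, and without off-doxycycline replicate 4 there were 6. The median difference over all genes was 0.0031 log2 units. In many of the genes that differed, the 2 female lungs off doxycycline lay farther from the on-doxycycline lungs than the 2 male ones.

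Single genes show this. Il6, the cytokine that drives the acute-phase response, had 6.69 and 8.09 log2 units in the off-doxycycline female lungs and 5.84 and 4.26 in the male ones, against 4.54 and 3.31 in the on-doxycycline female lungs and 4.32 and 3.02 in the male ones. Off-doxycycline replicates 1 to 3 were above every on-doxycycline lung, and the group difference of 2.42 ± 0.75 (SE) had an adjusted p of 0.277 by limma. On-doxycycline replicates 1, 2 and 4 were below background for Il6. With values raised to background its group difference was 1.89 (adjusted p = 0.309 by limma). Ccl2, the chemokine that calls monocytes out of the blood, was at 9.61, 11.44, 8.64 and 7.05 off doxycycline (replicates 1 to 4) and at 7.03, 6.02, 7.37 and 5.55 on it. Its difference was 2.69 ± 0.74, with an adjusted p of 0.205 by limma. Lcn2, the iron-binding lipocalin of neutrophils and inflamed epithelium, reached 15.25 and 15.02 in the off-doxycycline female lungs and 11.63 and 11.21 in the male ones, against 11.93, 11.19, 12.69 and 10.35 on doxycycline. On the linear scale the normalized count of Lcn2 was 38950 and 33130 in the off-doxycycline females, against 1302 to 6590 over the on-doxycycline lungs.

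Among the 12 higher genes with the smallest p over both sexes were Il23a, H2-DMa, Ccl2, Ccl22, Acsl4, C1qbp, H2-DMb1, Il18bp, Il6, Kpnb1 and Ccl7, with differences of 0.32 (Kpnb1) to 2.69 (Ccl2) for those other than Il23a, which was at or below background in every on-doxycycline lung and is bounded at 1.18-fold or more, and adjusted p of 0.114 to 0.277 by limma. The 12 lower ones were Il17b, Hsp90aa1, Mgam, Ulk1, Ccl21a/b/c/d, Il11ra1/2, Ntng2, Prkca, Cd81, Hsp90ab1, Lilra5 and Tcn2, with differences of -1.69 (Mgam) to -0.27 (Cd81) for those other than Il17b, which was at or below background in every off-doxycycline lung and at least 2.51-fold lower there, and adjusted p of 0.114 to 0.333 by limma.

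**Figure D1:**
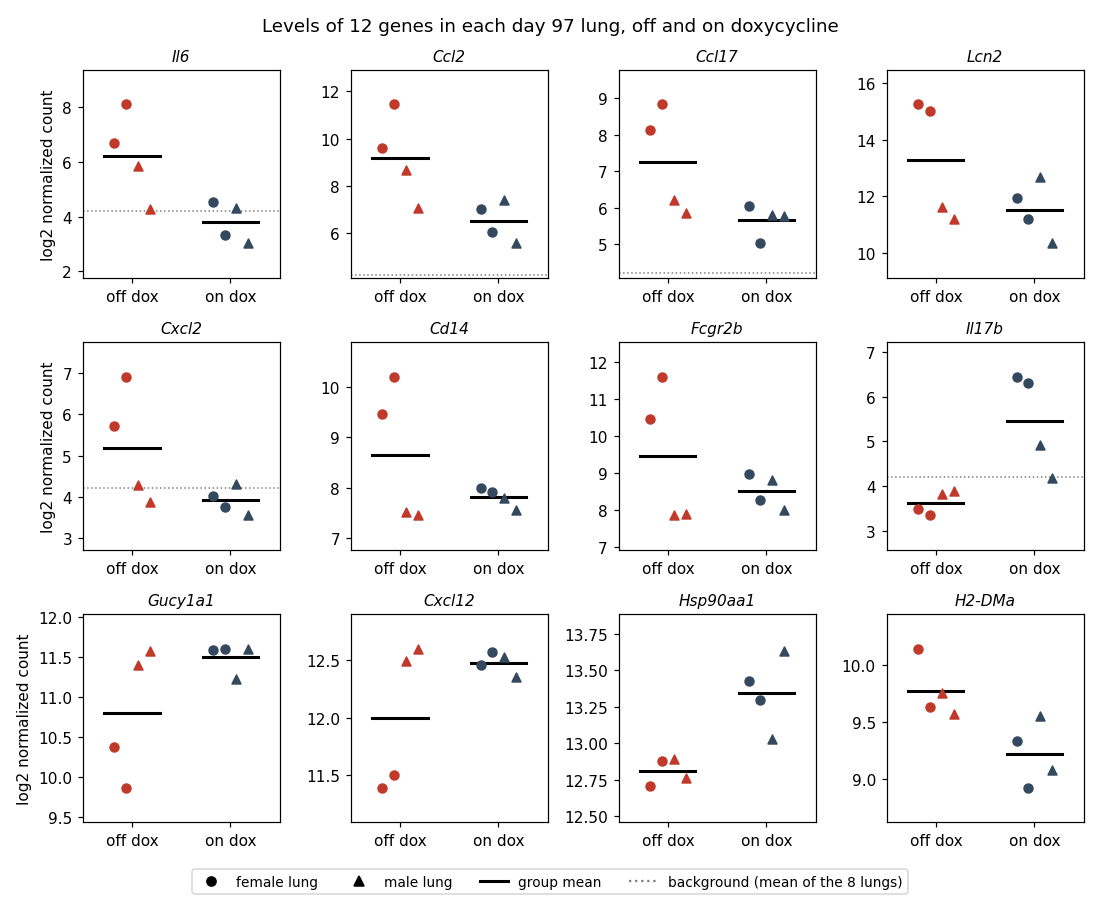
Log2 normalized count (y axis, a separate range for each gene) of 12 genes in the 4 off-doxycycline lungs (red, left) and the 4 on-doxycycline lungs (dark, right) at day 97, with circles for female lungs, triangles for male lungs, bars for group means and a dotted line for the mean background of the 8 lungs. In Il6, Ccl2, Lcn2 and Fcgr2b the off-doxycycline females stood above the rest, in Gucy1a1 and Cxcl12 below it, while Hsp90aa1 and H2-DMa separated all 4 lungs of each group.

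The sexes were also compared apart, with a mean for each group and sex over all 24 day 97 lungs. This split was an alternative to the main comparison, and it is read after the same lungs had shown where the females lay. Its calls describe these lungs and are no separate evidence that the females stand apart. In females, off-doxycycline lungs had 58 genes that rose (7.5% of the panel) and 42 that fell (5.43%) relative to on-doxycycline lungs at an adjusted p under 0.05 by limma. In males 0 genes passed (0%), with 15 at an unadjusted p under 0.05, and the voom fit also called 0. Over the 58 genes that rose in females the median difference was 1.28 log2 units in females and 0.05 in males, and over the 42 that fell it was -0.89 in females and 0.09 in males. Both off-doxycycline female lungs lay above all 6 other lungs of the comparison for 54 of the 58 genes, and below all 6 for 38 of the 42. Those counts describe the genes that the female test picked and are no further evidence for it. The count of female calls leaned on single lungs: it was 25 (17 higher, 8 lower) without on-doxycycline replicate 1, 23 without on-doxycycline replicate 2, 15 without off-doxycycline replicate 2, 83 without off-doxycycline replicate 1, and 20 when the 8 lungs were fitted alone. Of the 48 female calls whose values are described below, 34 kept the call without off-doxycycline replicate 1, 6 without off-doxycycline replicate 2, 13 without on-doxycycline replicate 1, 11 without on-doxycycline replicate 2 and 14 with the 8 lungs alone.

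A difference between the sexes has its own test, the interaction of sex and doxycycline, and there 1 of 773 genes passed by limma (0.129%), with 137 genes at an unadjusted p under 0.05. The count was 0 by voom, 0 when the 8 lungs were fitted alone, 0 without off-doxycycline replicate 2, 3 or 4 or on-doxycycline replicate 1 or 3, 7 without on-doxycycline replicate 2 and 15 without off-doxycycline replicate 1. Il1r2, Csf3, Cxcl3, Cd14, Ccr1 and Ifit3 each had an adjusted interaction p of 0.106 by limma, with a difference between the sexes of 3.17 ± 0.70 for Il1r2, 2.07 ± 0.49 for Cd14 and -1.34 ± 0.32 for Ifit3. Off-doxycycline replicate 3 and on-doxycycline replicate 3 were below background for Il1r2, and Csf3 and Cxcl3 were above it only in the off-doxycycline females, so no size is given for these 2. For these genes, as for nearly all female calls, a difference between the sexes was not shown. With 2 lungs of each sex in each group, sex and anything else that the 2 female lungs share cannot be told apart.

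**Figure D2:**
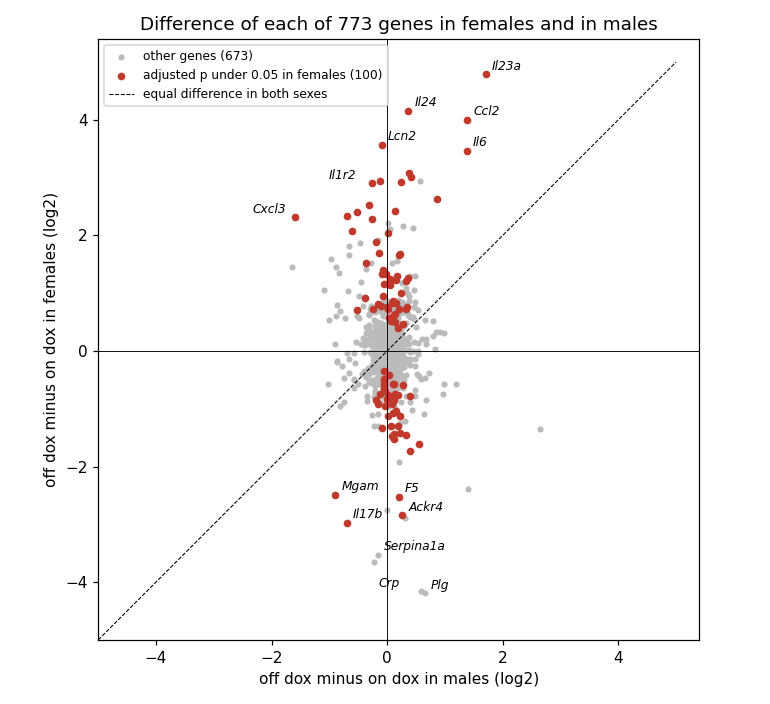
Off-doxycycline minus on-doxycycline difference (log2) of each of 773 genes in females (y axis) against that in males (x axis), with the 100 genes at an adjusted p under 0.05 in females in red, other genes in grey and a dashed line where both sexes would differ equally. The red genes spread along the female axis and most lie near 0 on the male axis, and Ccl2, Il6, Il23a, Il17b, Mgam and Cxcl3 are among those off 0 on both.

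Cytokines of the acute response were among the genes that rose most in females. The share to set beside each list count in females is that of the panel, 7.5% higher and 5.43% lower. No list was tested against it. Of 23 measured acute cytokines and their receptors, 4 rose and 0 fell in females (Il6, Il23a, Il1rn and Socs3), and the list's median female difference was 0.48, against -0.03 over all genes. In females Il6 rose at least 7.65-fold, since both on-doxycycline females were below background (adjusted p = 0.0409 by limma, 0.0335 with values raised to background). Its adjusted p was 0.217 without off-doxycycline replicate 2, 0.219 without on-doxycycline replicate 2, 0.0708 without on-doxycycline replicate 1 and 0.074 with the 8 lungs alone, and without off-doxycycline replicate 2 its difference was 2.76 log2 units, against 3.46 with all lungs, both as measured. Il23a, a subunit of interleukin 23, was at 4.68 and 4.98 log2 units in off-doxycycline females and 3.57 and 3.18 in off-doxycycline males, against 0.22, -0.15, 1.15 and 2.17 on doxycycline. Every on-doxycycline lung was at or below background for Il23a, so its size in females is bounded at 1.29-fold or more. The adjusted p of the values as measured was 0.00857 by limma, and with values raised to background it was 0.387, so the call on Il23a rests on levels below background. Il24, an epithelial and immune cytokine of the interleukin 10 family, stood at 5.85 and 7.92 in off-doxycycline females, 3.57 and 2.50 in off-doxycycline males and 2.48 to 2.85 on doxycycline, a rise of at least 5.38-fold in females (adjusted p = 0.0258 by limma). Known inhibitors of these cytokines rose too. Socs3, which blocks the signal of the Il6 receptor, rose by 1.69 ± 0.46 in females, and Il1rn, the natural antagonist of interleukin 1, by 2.05 ± 0.49. Il1b itself, the cytokine that Il1rn blocks, differed by 0.46 ± 0.63 in females and did not pass, nor did Tnf, at 0.55 ± 0.43.

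Neutrophil attractants and products rose in part. Of 20 measured members 5 rose and 0 fell in females (Lcn2, Cxcl2, Cxcl3, Csf3 and Il1r2), with a list median of 0.32. Lcn2 rose by 3.57 ± 0.78 in females (adjusted p = 0.014 by limma), 11.9-fold. Cxcl2, a chemokine that draws neutrophils, was at 5.71 and 6.91 in off-doxycycline females and 4.28 and 3.88 in off-doxycycline males, against 4.03, 3.76, 4.32 and 3.55 on doxycycline. Both on-doxycycline females were below background for Cxcl2 and for Cxcl3, of the same family. The rise in females was at least 3.61-fold for Cxcl2 (adjusted p = 0.0149 by limma, 0.0132 with values raised to background). Cxcl3 had a bound of 2.60-fold, and its adjusted p was 0.036 as measured and 0.058 with values raised to background. Csf3, the growth factor of neutrophils, was above background only in the 2 off-doxycycline female lungs of the 8, at 4.85 and 5.49, with a bound of 1.64-fold in females and an adjusted p by limma of 0.012 as measured and 0.143 with values raised to background. Il1r2, a decoy receptor that neutrophils and monocytes carry, rose by 2.90 ± 0.50, with 7.70 and 9.16 in off-doxycycline females, 3.11 and 4.08 in off-doxycycline males and 3.48 to 5.81 on doxycycline. Cxcl1 and Cxcl5, further neutrophil chemokines, differed by 2.94 ± 0.97 and 2.13 ± 1.04 in females and did not pass (adjusted p = 0.0622 and 0.181 by limma). Genes that neutrophils themselves carry, Cxcr2, Csf3r, Fpr1 and Mmp9, had female differences between -0.80 and -0.13 and did not pass either. In bulk tissue, fewer cells of a type and less RNA per cell cannot be told apart.

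Chemokines and receptors of monocytes formed the list with the most calls. Of 18 measured members 9 rose and 0 fell in females (list median 1.38), and over both sexes 9 of the 18 had an unadjusted p under 0.05 in the upward direction, though none passed adjustment. Ccl2 rose by 4.00 ± 0.96 in females (adjusted p = 0.0199 by limma), 16.0-fold. Ccl7, another ligand of the monocyte receptor Ccr2, rose by 2.62 ± 0.74. Ccl17 and Ccl22, which attract type 2 and regulatory T cells and are made by dendritic cells and macrophages, rose together. Ccl17 was at 8.12 and 8.82 in off-doxycycline females and 6.20 and 5.85 in off-doxycycline males, against 6.05, 5.02, 5.80 and 5.78 on doxycycline, a rise of 2.93 ± 0.58 in females. Ccl22 had 8.19 and 8.99 in off-doxycycline females and 6.99 and 6.93 in off-doxycycline males, against 5.89, 5.28, 7.13 and 5.98 on doxycycline, a rise of 3.00 ± 0.57. Ccl24, an attractant of eosinophils, rose at least 5.64-fold, both on-doxycycline females being below background, and was at 8.33 in off-doxycycline replicate 2 and 5.58 in replicate 1. Without replicate 2 the adjusted p of Ccl24 was 0.223, that of Ccl2 0.174 and that of Ccl7 0.235 by limma. The chemokine receptor Ccr1 rose by 1.36 ± 0.24, but Ccr2 itself (0.38 ± 0.28) and Cx3cr1 (-0.08 ± 0.31) did not pass.

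Among 13 measured macrophage genes 4 rose and 0 fell in females (list median 0.82). Cd14, the co-receptor for bacterial lipopolysaccharide, had 9.46 and 10.21 in off-doxycycline females and 7.51 and 7.44 in off-doxycycline males, against 8.00, 7.91, 7.78 and 7.55 on doxycycline. Fcgr2b, the inhibitory receptor for immunoglobulin G, had 10.47 and 11.60 in off-doxycycline females and 7.86 and 7.90 in off-doxycycline males, against 8.99, 8.28, 8.80 and 8.01 on doxycycline, so the males off doxycycline lay below all 4 on-doxycycline lungs while the females lay above them. Lgals3, a lectin abundant in alveolar macrophages, rose by 1.30 ± 0.38 and Itgax, an integrin of alveolar macrophages and dendritic cells, by 0.82 ± 0.25. Marco, a scavenger receptor of alveolar macrophages, differed by 2.16 ± 1.07 and did not pass. The urokinase gene Plau and its receptor Plaur, which act in fibrin breakdown and cell migration, rose by 1.34 ± 0.39 and 1.25 ± 0.28 in females. Myc, a driver of cell growth, rose by 1.67 ± 0.30.

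Many of these genes are known targets of NF-kB, the transcription factor that cytokine and Toll-like receptors release from its inhibitor. Of 17 measured genes of that pathway 1 passed in females, Nfkbia, the inhibitor and itself a target, which rose by 0.78 ± 0.19. Whether NF-kB acted in these lungs was not tested. RefSeq promoters are shown for 3 genes that rose and were picked because they carry the kappaB motif, and for Lcn2. Each window (GRCm38.p6) runs from 250 bases before to 50 after the gene start, written 5′ to 3′ along the gene's strand. Matches to the motif on either strand are in capitals. The motif searched was the classical kappaB consensus. The Il6 window lies at chr5:30012864-30013163 on the plus strand, that of Cxcl2 at chr5:90903649-90903948 on the plus strand, that of Nfkbia at chr12:55492598-55492897 on the minus strand and that of Lcn2 at chr2:32387690-32387989 on the minus strand.
Il6: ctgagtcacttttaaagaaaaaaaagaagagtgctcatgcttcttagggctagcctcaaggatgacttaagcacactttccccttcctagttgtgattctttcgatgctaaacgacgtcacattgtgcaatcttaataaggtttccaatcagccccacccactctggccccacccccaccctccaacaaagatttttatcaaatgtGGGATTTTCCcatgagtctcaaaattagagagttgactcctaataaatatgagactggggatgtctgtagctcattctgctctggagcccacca
Cxcl2: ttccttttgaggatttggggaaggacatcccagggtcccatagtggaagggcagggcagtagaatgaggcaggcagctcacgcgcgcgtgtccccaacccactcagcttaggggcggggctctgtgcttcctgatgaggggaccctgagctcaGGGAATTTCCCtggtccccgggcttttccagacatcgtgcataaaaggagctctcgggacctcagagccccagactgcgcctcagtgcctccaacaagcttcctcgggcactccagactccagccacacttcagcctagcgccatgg
Nfkbia: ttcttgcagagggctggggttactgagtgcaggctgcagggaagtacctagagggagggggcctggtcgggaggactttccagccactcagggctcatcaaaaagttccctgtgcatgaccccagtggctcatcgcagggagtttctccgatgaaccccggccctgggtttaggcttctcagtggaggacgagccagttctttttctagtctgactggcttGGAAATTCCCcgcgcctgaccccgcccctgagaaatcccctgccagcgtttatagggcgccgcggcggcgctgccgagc
Lcn2: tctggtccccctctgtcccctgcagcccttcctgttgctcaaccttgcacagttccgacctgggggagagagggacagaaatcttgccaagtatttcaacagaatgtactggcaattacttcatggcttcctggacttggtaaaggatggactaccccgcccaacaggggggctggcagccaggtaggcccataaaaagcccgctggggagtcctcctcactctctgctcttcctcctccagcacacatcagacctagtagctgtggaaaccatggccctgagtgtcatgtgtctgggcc
The match starts 44 bases before the gene start in Il6 and 29 before it in Nfkbia, Cxcl2 holds 2 overlapping matches from 97 bases before it, and the Lcn2 window holds none. Of the 58 genes that rose in females 44 had a promoter in the table and 10 of these held the motif (22.7%), as did 3 of 31 promoters of genes that fell (9.68%), 76 of 593 promoters of panel genes (12.8%) and 2211 of all 27025 promoters (8.18%). These shares are descriptions of letters in a window and were not tested.

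The genes that fell in off-doxycycline females were of mixed kinds. Immune genes were among them, such as the chemokine Cxcl12, the cytokine Il17b, Ifit3 and Tnfsf10. Gucy1a1 and Gucy1b1 encode the subunits of the nitric oxide receptor of vessel and airway smooth muscle and pericytes. Gucy1a1 was at 10.37 and 9.86 in off-doxycycline females and 11.40 and 11.58 in off-doxycycline males, against 11.58, 11.60, 11.22 and 11.60 on doxycycline. It fell by 1.48 ± 0.33 in females (adjusted p = 0.014 by limma), and Gucy1b1 fell by 1.30 ± 0.25. Cxcl12, the stromal and endothelial chemokine that holds leukocytes in tissue, was at 11.39 and 11.49 in off-doxycycline females and 12.50 and 12.60 in off-doxycycline males, against 12.46, 12.58, 12.53 and 12.35 on doxycycline, and fell by 1.08 ± 0.25 in females (adjusted p = 0.0162 by limma). Ager fell by 0.65 ± 0.14, with 13.86 and 13.82 in off-doxycycline females and 14.43 and 14.64 in off-doxycycline males, against 14.32, 14.66, 14.42 and 14.75 on doxycycline. Mme, the peptidase neprilysin, fell by 0.92 ± 0.25, Hsd11b1, which regenerates active glucocorticoid, by 1.33 ± 0.36, and Slc2a3, a glucose transporter, by 1.43 ± 0.41. Normalized counts of Slc2a3 were 98.9 and 85.4 in off-doxycycline females and 277.3 and 221.4 in on-doxycycline females. Males had 142.3 and 114.2 off doxycycline and 118.0 and 117.4 on it, so the on-doxycycline females stood apart too. Between on-doxycycline females and males, 13 of the 100 female calls had an unadjusted p under 0.05 by limma, against 69 of all 773 genes. Of 8 measured genes of matrix, TGF-beta and endothelium 0 passed in females, with Pecam1, a marker of endothelium, at -0.54 ± 0.31. Of the 6 measured lung epithelial genes only Ager passed in females. Lamp3, which marks alveolar type II cells, differed by 0.66 ± 0.22 in females with an adjusted p of 0.0596 by limma.

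Interferon-stimulated genes did not move as a group. Of 34 measured, 1 rose and 3 fell in females, and the list median was -0.09. Over the panel 7.5% of genes rose and 5.43% fell in females, and list counts near these shares show nothing particular to a list. The 3 that fell were Ifit1, Ifit2 and Ifit3, antiviral proteins that bind foreign RNA: Ifit3 had 9.22 and 8.96 in off-doxycycline females and 10.06 and 10.55 in off-doxycycline males, against 10.21, 10.21, 9.98 and 10.19 on doxycycline. Zbp1, a sensor of nucleic acid that can start necroptosis, was the one that rose, by 1.27 ± 0.29. Ripk3 and Mlkl, which carry out necroptosis, rose by 1.33 ± 0.40 and 0.76 ± 0.23, and Pycard, the adaptor of inflammasomes, by 1.17 ± 0.31, so that 3 of 19 measured cell death genes rose, while Tnfsf10, the death ligand TRAIL, fell by 1.29 ± 0.36. Of 18 lysosome and autophagy genes 3 fell and 0 rose in females: Ulk1, the kinase that starts autophagy, by 0.70 ± 0.14, Becn1 by 0.35 ± 0.11 and Atg12 by 0.41 ± 0.12. Few calls fell in the other lists. In females Socs1 rose among 11 interferon-gamma-inducible genes, Psmb8 among 11 of MHC class I and Sod2 among 5 of oxidative stress, Cdk4 and Myc both rose as the 2 measured proliferation genes, and of 13 coagulation, fibrinolysis and complement genes Plau and Plaur rose while F5, C2 and Cd59a fell. Of 12 leukotriene and prostaglandin genes Alox12 fell, and of 10 heat shock and unfolded protein genes 0 passed. Lymphocyte lists held no call in females: 0 of 26 T cell genes (list median -0.49), 0 of 19 CD8 T, NK and cytotoxic genes (0.03) and 0 of 13 B and plasma cell genes (-0.40).

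**Figure D3:**
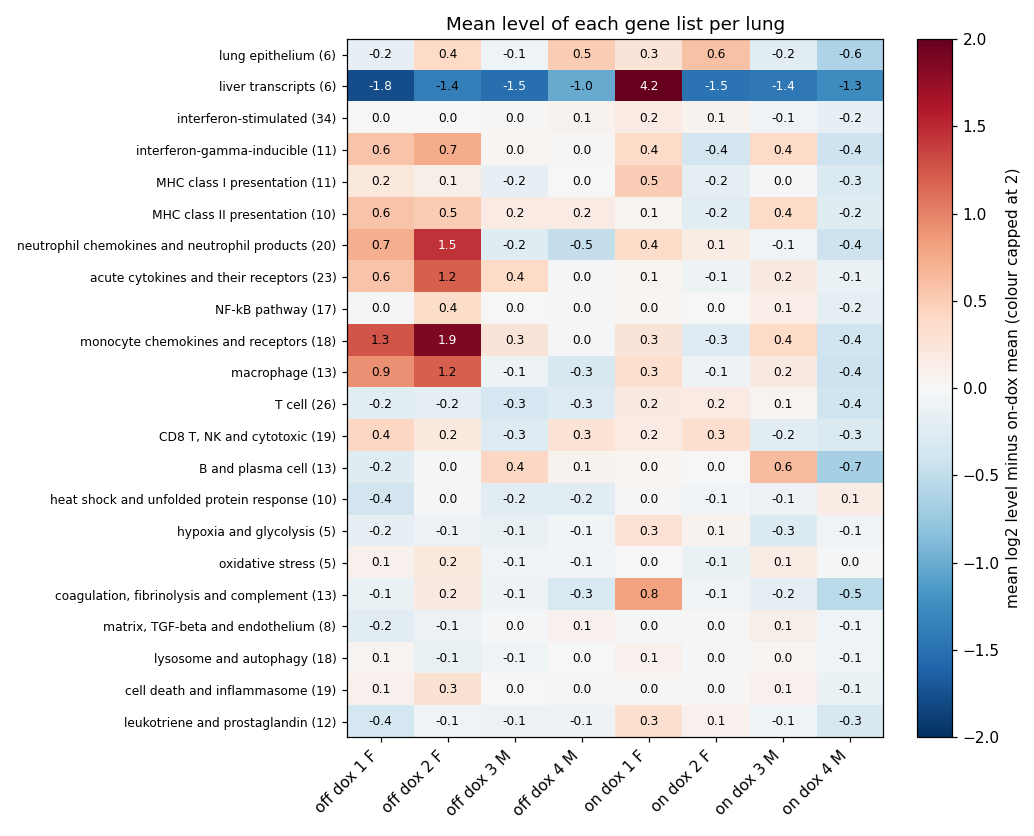
Mean log2 level of the measured members of each gene list (number in brackets) in each lung, minus the mean of that list over the 4 on-doxycycline lungs, for the 4 off-doxycycline lungs (left) and the 4 on-doxycycline lungs (right), with F for female and M for male. The monocyte chemokine, neutrophil and macrophage lists stand above the on-doxycycline mean in off-doxycycline replicates 1 and 2 and near it in replicates 3 and 4, and the liver list stands out in on-doxycycline replicate 1.

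A smaller set of genes separated all 4 off-doxycycline lungs from all 4 on-doxycycline lungs in both sexes. There were 19 such genes above (2.46% of the panel) and 8 below (1.03%), and none of the 27 passed the adjusted test. Some genes separate 4 lungs from 4 by chance alone, and the count was not tested against that. Hsp90aa1, the inducible HSP90 chaperone, was at 12.71, 12.88, 12.89 and 12.76 off doxycycline and at 13.43, 13.30, 13.03 and 13.63 on it, a difference of -0.54 ± 0.14 (adjusted p = 0.205 by limma) that was -0.57 in females and -0.51 in males. Its constitutive partner Hsp90ab1 was at 11.45, 11.50, 11.53 and 11.46 off doxycycline and 12.05, 11.78, 11.66 and 12.05 on it. For both chaperone genes the off-doxycycline lungs lay below every on-doxycycline lung, females and males alike. Il17b, a member of the interleukin 17 family, was at or below background in all 4 off-doxycycline lungs (3.34 to 3.88) and above it in all 4 on-doxycycline lungs, at 6.45, 6.31, 4.91 and 4.17, and in females it fell at least 5.09-fold (adjusted p = 0.00252 by limma). H2-DMa and H2-DMb1, the chaperone that loads peptides onto MHC class II, were both higher in all 4 off-doxycycline lungs. H2-DMa was at 10.15, 9.63, 9.76 and 9.57 off doxycycline and 9.33, 8.92, 9.55 and 9.08 on it. H2-DMb1 was at 11.43, 10.78, 10.67 and 10.53 off doxycycline and 10.19, 10.00, 10.50 and 10.23 on it. Of 10 measured MHC class II genes 3 rose in females, these 2 and the costimulator Cd80. Psmb9, a subunit of the immunoproteasome, Gbp3 and Gbp5, interferon-gamma-induced guanylate-binding proteins, Acsl4, a ligase of polyunsaturated fatty acids, and Lamp3 were also among the 19. Lamp3 was at 13.30, 12.62, 12.81 and 12.81 off doxycycline and 12.41, 12.19, 12.56 and 12.62 on it, so that the groups nearly met at 12.62. They nearly met for Gbp5 too, with a lowest normalized count of 296.4 off doxycycline and a highest of 296.0 on it. For Gbp3 these counts were 140.2 and 139.8.

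Liver transcripts and some falls moved with on-doxycycline replicate 1. Of the 6 measured liver genes 0 passed over all lungs or in females, and their median difference was -1.54 log2 units with that lung and -0.10 without it. F5, coagulation factor V, was at 4.24, 5.49, 5.72 and 5.64 off doxycycline and 8.19, 6.60, 5.74 and 5.21 on it. It fell in females by 2.53 ± 0.62 (adjusted p = 0.0206 by limma), and without on-doxycycline replicate 1 its difference was -1.73 with an adjusted p of 0.147. Mgam, a maltase, was at 4.32, 5.30, 4.92 and 4.57 off doxycycline and 8.13, 6.47, 5.91 and 5.38 on it, and its adjusted p in females was 0.0123 with that lung and 0.0899 without it. Of the 100 female calls 24 remained without that lung. Il6, Ccl2, Cxcl2, Fcgr2b, Gucy1a1 and Cxcl12 kept differences of the same sign in females without that lung, but their adjusted p lay between 0.0542 and 0.0708, while Il1r2, Cd14, Ccl17, Ccl22, Lcn2, Il23a, Il17b and Ager stayed below 0.05. Csf3, Il1rn, Ccr1, Myc and Gucy1b1 stayed below 0.05 too, and the other female calls among the 48 all lay above it without that lung, at adjusted p of 0.053 (Ifit3 and H2-DMa) to 0.177 (Ifit2).

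The spread between lungs was larger off doxycycline than on it, and close to that of the repeat AAV-hSPB group. The median SD per gene was 0.31 log2 units off doxycycline, 0.32 after repeat AAV-hSPB, 0.17 to 0.22 in the 3 other vector groups and 0.24 on doxycycline, or 0.22 on it without replicate 1, and 513 of 773 genes had the larger SD off doxycycline. Over the 639 genes above background in all 8 lungs the medians were 0.28 and 0.19. The 10 most variable genes off doxycycline were Il1r2, Ackr4, Il24, Cxcl3, Lcn2, Fcrlb, Fcgr2b, Ccl24, Ccl2 and Il1f6, and in each the 2 females lay on one side of the 2 males. On doxycycline they were Plg, Crp, H2-Q10, Serpina1a, Hamp, Ltf, Cyp2e1, Agt, Cxcl9 and Tcl1, of which 7 (Plg, Crp, H2-Q10, Serpina1a, Hamp, Cyp2e1 and Agt) were highest in replicate 1. Some of these SDs rest on levels below background. Il1f6 was below it in off-doxycycline replicates 2 to 4, and Tcl1 in every on-doxycycline lung. Between the 2 off-doxycycline females 71 genes differed by over 1 log2 unit, and between the 2 off-doxycycline males 35. Between an off-doxycycline female and an off-doxycycline male 106 to 160 genes did, against 40 to 56 between an off-doxycycline male and on-doxycycline replicates 2 to 4, and 55 to 88 among those 3 lungs themselves. Of the 2 females replicate 2 was the farther, above replicate 1 for 51 of the 58 genes that rose. The 2 females had 101 and 126 genes over 1 log2 unit from the on-doxycycline mean. Repeat AAV-hSPB replicates 1 to 4 had 110, 189, 68 and 144, so such a distance was not particular to the off-doxycycline females.

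**Figure D4:**
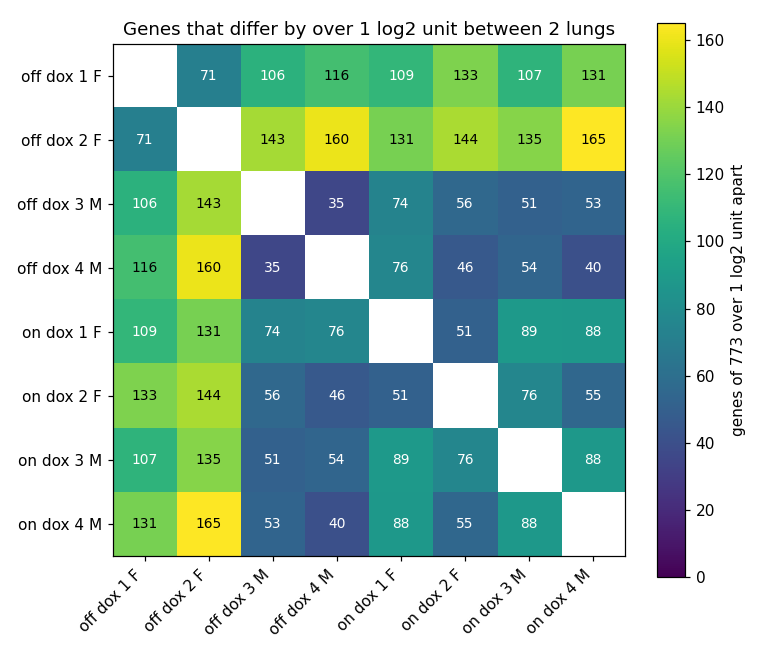
Number of the 773 genes that differ by over 1 log2 unit between each 2 of the 8 lungs, off-doxycycline lungs first, with F for female and M for male. The 2 off-doxycycline females differ from the other 6 lungs at 106 to 165 genes, and the 2 off-doxycycline males differ from the 4 on-doxycycline lungs at 40 to 76.

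Reference genes varied as well. The authors' values are scaled to Abcf1, Hprt, Mrps7, Nmt1, Oaz1 and Tbp. The group means of these 6 off and on doxycycline differed by -0.12 to 0.16 log2 units, and the 6 others on the panel were Pgk1, Gusb, Alas1, Sdha, Stk11ip and Nrde2. Pgk1, a glycolytic kinase, was at 11.69, 12.60, 11.21 and 11.33 off doxycycline and 11.50, 11.22, 11.25 and 11.09 on it. Alas1, the first enzyme of heme synthesis, was at 10.81, 10.61, 11.09 and 11.37 off doxycycline and 11.58, 11.75, 11.18 and 11.80 on it. The females off doxycycline were thus the highest lungs for Pgk1 and the lowest for Alas1, and with all 12 genes as the scale the median female difference over the panel was 0.003 in place of -0.03.

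Against the mean of the 5 other day 97 groups, which include on doxycycline and the 4 vector groups, off-doxycycline lungs had 25 genes that rose (3.23%) and 92 that fell (11.9%) at an adjusted p under 0.05 by limma. The split depended on the scale: it was 49 higher and 42 lower when each lung was centred on its median gene, which moved the median difference over all genes to 0.0079, against -0.0976 on the authors' scale, and 34 higher and 49 lower when it was scaled to all 12 reference genes. All 25 genes that rose and 78 of the 92 that fell had a difference of the same sign from on doxycycline, and 30 of the 117 had an unadjusted p under 0.05 there. The largest were Ccl2 at 2.08 ± 0.57 (adjusted p = 0.0236 by limma), Cxcl1 at 2.03 ± 0.61, Ccl24 at 1.92 ± 0.52, Il6 at 1.88 ± 0.58, Cxcl2 at 1.55 ± 0.42, Ccl7 at 1.38 ± 0.45 and Ccl17 at 1.35 ± 0.42, with Il23a also among the 25. These sizes are as measured, and Il6, Cxcl2 and Ccl24 were below background in some on-doxycycline lungs. Lcn2 averaged 13.28 ± 2.15 (SD, n = 4) off doxycycline, 11.40 to 11.65 in the 4 vector groups and 11.54 ± 1.00 (SD, n = 4) on doxycycline, and did not pass (adjusted p = 0.0586 by limma). The count of rises moved with single lungs: without off-doxycycline replicate 1 there were 0 rises and 16 falls, without replicate 2 there were 1 and 29, and without the male replicate 4 there were 57 and 141. Both off-doxycycline female lungs lay above all 22 other day 97 lungs for 45 genes (5.82%) and below all of them for 65 (8.41%).

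Lymphocyte genes were among those that fell against the 5 groups. Of 26 T cell genes 16 fell, of 13 B and plasma cell genes 6 did, and of 11 MHC class I genes 4. Over the whole panel 11.9% of genes fell. The mean that the list genes fell against includes the vector groups. Against it the list medians were -0.59 for T cell, -0.76 for B and plasma cell and -0.44 for MHC class I genes. Against on doxycycline alone the medians were -0.28, 0.03 and 0.18, in the same order. By its median, the MHC class I list was thus not below on doxycycline. The B and plasma cell median changed sign with the choices made. It was -0.04 without on-doxycycline replicate 1 and -0.008 with each lung centred on its median gene. Cxcl9, a chemokine induced by interferon gamma, averaged 5.22 ± 0.77 (SD, n = 4) off doxycycline, 6.12 ± 0.36 and 6.90 ± 0.57 after a single AAV-hSPB or AAV-hSPBTLR9i dose, 9.16 ± 1.21 and 8.86 ± 0.33 after the repeat, and 4.95 ± 1.81 on doxycycline. Irf4, a regulator of activated lymphocytes, fell by 1.44 ± 0.24 against the 5 groups and had a mean of 5.93 ± 0.45 off doxycycline and 6.04 ± 0.32 on it (SD, n = 4 each). Cd4, the T helper cell receptor, was at 6.57 ± 0.25 off doxycycline, 7.20 to 7.92 in the vector groups and 7.09 ± 0.29 on doxycycline, with 6.93, 6.43, 6.41 and 6.48 off doxycycline and 7.47, 6.86, 7.19 and 6.85 on it, so that only off-doxycycline replicate 1 reached into the on-doxycycline range. The same 4 off-doxycycline lungs enter both comparisons, so the values of one are no check on the other.

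**Figure D5:**
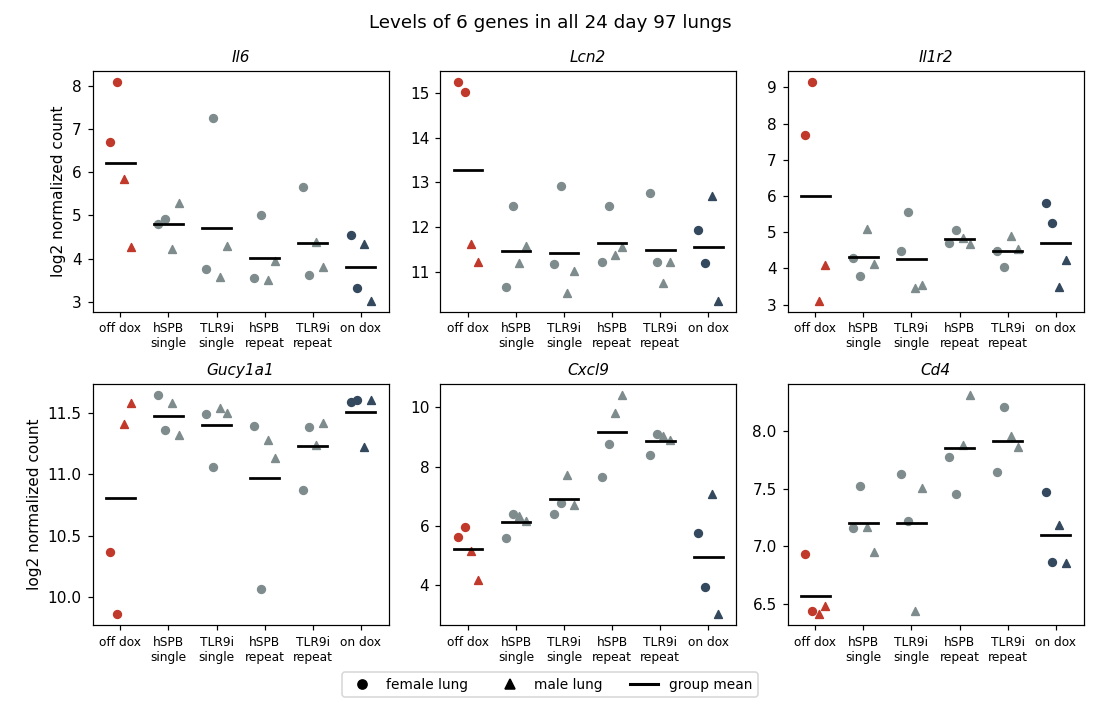
Log2 normalized count (y axis, a separate range for each gene) of 6 genes in the 24 day 97 lungs, with off doxycycline (red) first, then a single and a repeat dose of AAV-hSPB (hSPB) or AAV-hSPBTLR9i (TLR9i) in grey, then on doxycycline (dark), circles for females, triangles for males and bars for group means. The off-doxycycline females stand above the 22 other lungs for Lcn2 and Il1r2, and Cxcl9 and Cd4 are highest in the repeat-dose groups. For Il6 a single-dose AAV-hSPBTLR9i lung (7.25) lies above off-doxycycline replicate 1 (6.69). For Gucy1a1 a repeat AAV-hSPB lung (10.07) lies below off-doxycycline replicate 1 (10.37).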

How the data were processed

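RNA of flash-frozen right lungs was counted on an nCounter panel, per the labels' protocols. The authors deposited normalized counts per gene as log2 values and as linear values (the signal), and their software and treatment of background are not given in the sources used here. In the deposited log2 values and their linear form, the mean log2 level of 6 reference genes is constant over lungs. In a second deposited set of values for the same samples that of all 12 is. The linear counts printed here belong to the first. Dividing by 1 step per lung gave whole counts for 100% of the values (within 0.1), which were used for voom and for depth. The columns of 9 lungs taken at 3 h were not used.

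The log2 values of 24 day 97 lungs were fitted with limma 3.58.1 in R 4.3.3, with 1 mean per group (18 residual degrees of freedom), or per group and sex (12), and Benjamini-Hochberg adjustment over 773 genes at 0.05. Differences are off minus on doxycycline in log2 units, with SE. Background was the mean plus 2 SD of 8 control probes. A fold marked "at least" raises values below background to it. The fit was tested on simulated data.

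The lungs and gene lists were chosen with earlier results of these data known. Named genes were, by rule, those with the smallest p (12 a direction), up to 4 per list, the 10 most variable per group, the called genes up to 12 in the other contrasts, and the reference genes. Genes named from the female contrast were chosen after their values were seen. The fit per sex for all other settings, the identifier series and some uses of the background floor were added after seeing the data. Some genes are not reported here.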

Additional observations from a re-analysis of the deposited data

Results flagged for a closer look

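A sample far from the 3 others of its group was found in 4 of 116 groups of 4 lungs tested, and chance gives about 1 in 20. The liver transcripts Serpina1a, Plg, H2-Q10 and Agt, for which on-doxycycline replicate 1 stood far above the other lungs, were not among the groups tested. That lung was flagged in 0 of the tested groups. On-doxycycline replicate 3 was such a lung for Il1b, at 7.93, for Gucy1a1, at 11.22, and for Ifit3, at 9.98, and off-doxycycline replicate 1 for F5, at 4.24.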

How the results depend on the processing

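Over both sexes, 1 gene was called with each lung centred on its median gene and 1 with the identifier series of the samples as a covariate, 100 with females alone, and 0 to 6 with 1 lung left out. The interaction count was 0 by voom and with the 8 lungs alone, 3 with the identifier series, 2 with values raised to background, and 0 to 15 with 1 lung left out. The female count was 20 with the 8 lungs alone and 15 to 83 with 1 lung left out, and the male count was 0 under every alternative run. Against the 5 other groups the count was 16 to 198 with 1 lung left out. Of the female calls 50 higher and 35 lower ones held under both other scalings, and Il17b was among those that held without each of the 4 female lungs. With values raised to background Il23a (adjusted p = 0.387 by limma), Csf3 (0.143), Cxcl3 (0.058) and Becn1 (0.0529) lost their female calls. With 1 lung left out, the female difference ran from -0.40 to 1.31 for Il1b, from -0.010 to 1.11 for Tnf and from -0.67 to 0.51 for Cx3cr1, none of which passed, and it turned sign without off-doxycycline replicate 2 in all 3 and without on-doxycycline replicate 1 in Cx3cr1 (0.052). Of the named genes' female results under alternatives, 541 kept their direction and side of the threshold and 187 kept the direction but no longer passed. The cause was not tested. No paired analysis was possible because the labels give the lungs no number that links an off-doxycycline lung to an on-doxycycline one. Genes at or below background, 81 to 109 per lung off doxycycline and 90 to 110 on it, have only a bound.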
